A study of Mus musculus with 20 samples.

Results

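The genes described here carry glucose into the cell, break it down to pyruvate and lactate, pass pyruvate into the mitochondria and store or release glycogen. They were chosen by name, 33 of the 23284 genes in each heart's table, and all 33 were found, with Pkm, Mpc1 and Mpc2 listed under the older symbols Pkm2, Brp44l and Brp44. Levels are in FPKM, a count of sequenced fragments set against transcript length and library size. This allows rough comparison between genes, except where reads may be divided between close copies, as described below. Genes entered the test where their 20 hearts averaged 0.5 FPKM or more, which 31 of the 33 did. Aldoc and Eno1 were under that limit.

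Messenger RNA was sequenced from the hearts of 20 C57BL/6 mice, 2 in each of 10 groups, to compare control and Wnt5a knockout hearts under pressure overload. Control mice carried floxed alleles of Wnt5a, which encodes a secreted Wnt ligand. CKO mice carried the same floxed alleles with a Myh6-Cre/Esr1 transgene, in which a promoter active in cardiac muscle cells drives a tamoxifen-dependent Cre recombinase, so the floxed sequence is to be lost from those cells and kept in the other cell types of the heart. Hearts of both genotypes were taken at the end of tamoxifen without an operation, and at 2 or 4 weeks after TAC (transverse aortic constriction, in which a tied aorta puts the left ventricle under pressure) or after a sham operation. Control hearts 22 and 23 and CKO hearts 21 and 24 are those from the end of tamoxifen. Control hearts 12 and 16 followed sham and 11 and 32 TAC at 2 weeks, and 6 and 7 followed sham and 1 and 2 TAC at 4 weeks. The CKO hearts at 2 weeks were 14 and 15 (sham) and 13 and 31 (TAC), and those at 4 weeks were 4 and 8 (sham) and 3 and 41 (TAC). These are the numbers in the labels, which name every library as a separate heart, and values of a pair are given below in this order. Ages are not given in the sources used here.

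Glucose enters a heart muscle cell through Slc2a4 (GLUT4), which insulin and contraction bring to the cell surface, and through Slc2a1 (GLUT1), a transporter of most cells. Hexokinases trap it as glucose 6-phosphate, phosphofructokinase sets the pace of glycolysis, and the pyruvate formed is either exchanged with lactate or carried into the mitochondria for pyruvate dehydrogenase, which kinases of the Pdk family switch off. The adult heart draws most of its energy from fatty acids and is known to lean more on glucose under pressure overload, and it uses muscle or heart isoforms (Pfkm, Pgam2, Eno3, Ldhb) where many other tissues use Pfkl or Pfkp, Pgam1, Eno1 and Ldha.

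The libraries were of similar size, with relative depths of 0.877 to 1.21 read from the spacing of low values, of which 94.7% of 10079 lay within 5% of a whole multiple. Absolute depth is unknown, so no interval was drawn from counts. Wnt5a ranged over 1.58 to 4.11 FPKM in controls (10 hearts) and 0.853 to 2.33 in CKO mice (10 hearts), and Esr1, part of the transgene, was 0.101 to 0.465 in controls and 197 to 931 in CKO hearts. The Esr1 values match the labels of all 20 hearts, and the Wnt5a ranges overlap. Over both times, the log2 difference in Wnt5a, CKO minus control, was -0.62 ± 0.15 in sham and -0.41 ± 0.15 in TAC hearts. At the end of tamoxifen it was -0.38 ± 0.21, and none of these passed the test described below. The muscle transcripts Myh6, Myl2, Tnnt2 and 7 others summed to 68317 to 103936 FPKM over the hearts, while 8 skeletal muscle markers summed to 2.52 to 8.33 FPKM. The atrial transcript Myl7 was at 10 FPKM or more in 5 hearts (11, 14, 16, 21 and 24), and calls over both times that end without them are given as such. Leaving them out leaves 1 heart in the control sham, control TAC and CKO sham groups at 2 weeks, each assumed to vary like the other groups, so such a loss also comes with fewer hearts. The part of atrial tissue in the results was not tested otherwise.

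Promoters of 4 genes are printed because the genes moved apart after TAC: Ldha, the muscle subunit of lactate dehydrogenase, Pgk1 and Pfkp were higher in control hearts, and Ldhb, the heart subunit, was lower. Each is the 250 bases before the transcription start in RefSeq (GRCm38.p6), 5′ to 3′ on the gene's strand, with matches to 6 motifs in capitals. These are the E-box CACGTG, the core of the hypoxia-factor (HIF) site ACGTG, which lies inside that E-box on both strands, and the TEAD motif GGAATG. The others are a loose MEF2 pattern (CTA, 4 bases of any kind, TAG), the ERR motif TNAAGGTCA and the PPAR motif (AGGTCA repeated after 1 base). All were searched on both strands. The windows are chr7:46845554-46845803, plus strand for Ldha (the first of 2 starts), chr6:142507958-142508207, minus strand for Ldhb, chrX:106186850-106187099, plus strand for Pgk1 and chr13:6648772-6649021, minus strand for Pfkp.
Ldha: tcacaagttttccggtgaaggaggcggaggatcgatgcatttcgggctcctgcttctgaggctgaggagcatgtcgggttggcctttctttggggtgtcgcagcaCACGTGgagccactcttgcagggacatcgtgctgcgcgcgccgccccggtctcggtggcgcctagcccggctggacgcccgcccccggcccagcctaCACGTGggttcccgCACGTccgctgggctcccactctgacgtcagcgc
Ldhb: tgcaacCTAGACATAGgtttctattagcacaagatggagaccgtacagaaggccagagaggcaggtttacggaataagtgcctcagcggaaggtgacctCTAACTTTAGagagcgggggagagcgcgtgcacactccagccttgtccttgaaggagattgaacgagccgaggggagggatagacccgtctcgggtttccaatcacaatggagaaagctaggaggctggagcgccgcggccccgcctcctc
Pgk1: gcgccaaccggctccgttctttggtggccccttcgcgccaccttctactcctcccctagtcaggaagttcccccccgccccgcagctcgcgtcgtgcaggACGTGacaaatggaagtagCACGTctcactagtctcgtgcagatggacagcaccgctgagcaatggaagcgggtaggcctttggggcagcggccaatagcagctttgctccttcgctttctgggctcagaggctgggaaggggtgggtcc
Pfkp: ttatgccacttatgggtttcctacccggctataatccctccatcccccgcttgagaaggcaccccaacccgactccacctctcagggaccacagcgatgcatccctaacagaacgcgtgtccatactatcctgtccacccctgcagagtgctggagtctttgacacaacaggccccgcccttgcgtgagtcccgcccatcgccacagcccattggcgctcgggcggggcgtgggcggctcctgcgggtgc
Ldha has 2 E-boxes, 145 and 48 bases before its start, and a separate HIF core 34 bases before it. Pgk1 has 2 HIF cores, at 150 and 131 bases, Ldhb has 2 matches to the loose MEF2 pattern, at 244 and 151 bases, and Pfkp has none of the 6. That pattern allows any 4 middle bases, and both Ldhb matches hold G or C there, so they are not given as MEF2 sites. RefSeq promoters matched 32 of the 33 genes, in 52 windows, some of which overlap. A HIF core was in 34.6% of these windows against 16.6% of the 32851 windows of this length that were searched, and an E-box in 11.5% against 6.02%. TEAD motifs were in 13.5% against 12.6%, and the loose MEF2 pattern in 3.85% against 3.2%. The ERR and PPAR motifs were in no window of these genes, against 1.14% and 0.0335%. HIF cores were also in windows of Hk2, Pfkm, Pdk2 and Pygm, which were lower after TAC in control hearts. The other lower genes with a promoter had none. Gpi1, which was higher, had no match to any of the 6, nor had the second Ldha window. A match describes letters and not a bound site, and a link between motifs and direction was not tested.

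The tested genes ranged from a median of 2.01 FPKM (Pgam1) in the 12 hearts without TAC to 2255 (Aldoa). In these hearts the median was 2255 FPKM for Aldoa, the muscle aldolase, 1657 for Eno3, 1424 for Ldhb, 788 for Pgam2 and 771 for Pdha1, a subunit of pyruvate dehydrogenase. The ranges over these hearts set Aldoa (2156 to 2509 FPKM) apart from Eno3 (1349 to 1885), whereas Eno3 and Ldhb (1200 to 1634) overlapped, as did Pgam2 (727 to 1009) and Pdha1 (699.8 to 903). Mpc2, Pfkm, Pkm, Ldha, Pygm and Pdhb overlapped in one block between 409.8 and 671 FPKM. Slc2a4, at 175 to 211, was above Slc2a1, at 7.45 to 11.4, in every heart. The next tier held Pdk2, Pdk4, Gpi1 and Dlat, with medians of 186, 132, 120.3 and 119.5 FPKM, and then Slc16a1 (85.8), Hk2 (81.9), Pdk1 (61.2), Hk1 (53.9), Pfkl (49.2), Mpc1 (42.4), Gys1 (41.9), Pfkfb2 (26.5), Pfkp (18.1) and Pgk1 (15.4). Low levels were those of Pfkfb1 (8.72 to 17.3) and Pfkfb3 (1.32 to 3.06), which set phosphofructokinase activity, and of the phosphorylase kinase subunit Phkg1 (9.23 to 20.3).

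**Figure D1:**
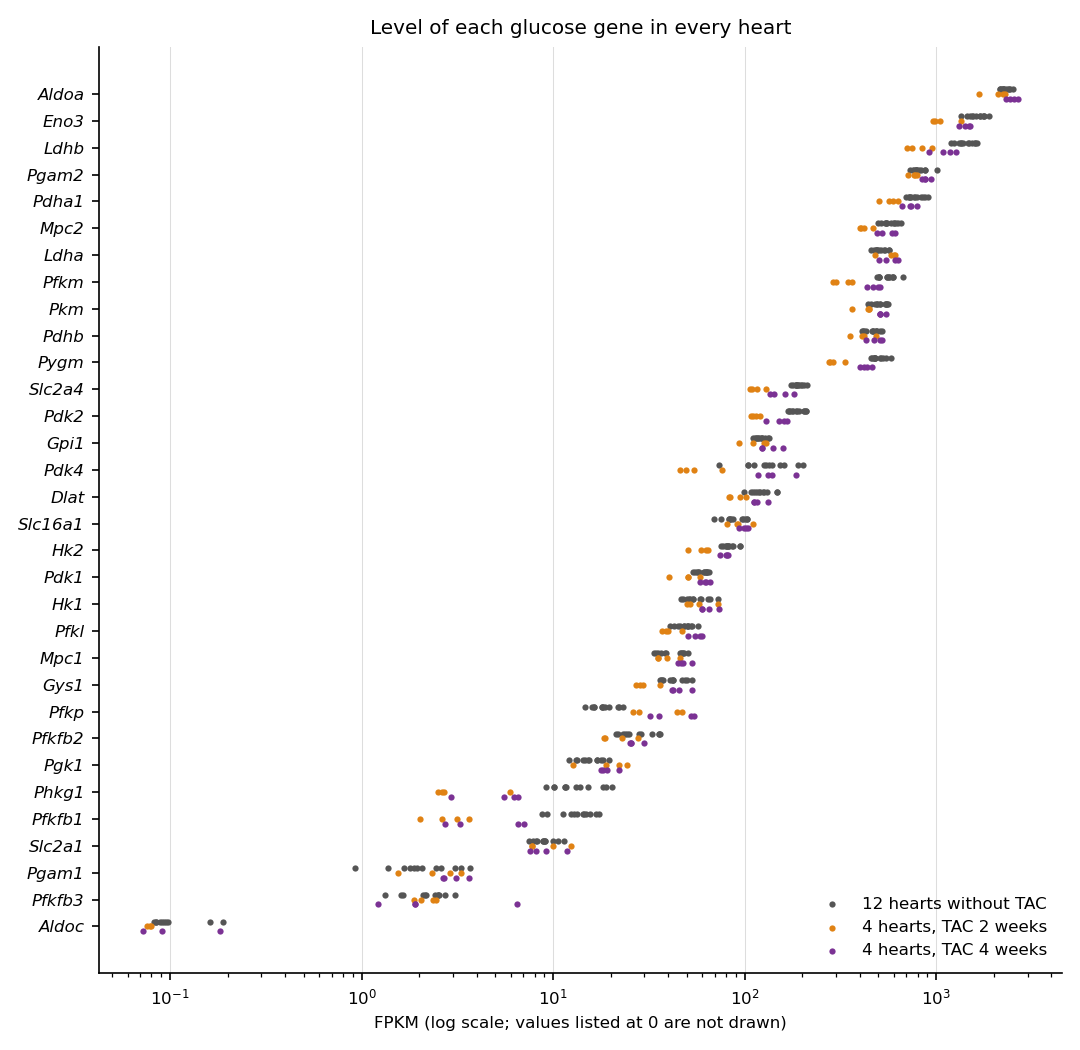
FPKM (log scale) of each gene with any value above 0, one point per heart: 12 hearts without TAC, 4 at 2 weeks of TAC and 4 at 4 weeks. Genes are ordered by their mean; Pfkp lies to the right after TAC and Pfkfb1 and Phkg1 to the left, and Eno1, listed at 0 throughout, is not drawn.

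Some levels are uncertain. Eno1 was listed at 0 in all 20 hearts, and Gapdh, which every cell uses, at 0 to 0.867 FPKM, so a listed 0 can be a failed estimate. A near-identical Eno1 copy listed as Gm5506 (named Eno1b in RefSeq) had 19.7 to 39.9 FPKM, and the aldolase copies Aldoart1 and Aldoart2 had 50.6 to 87.1 and 49.6 to 92.2, so reads of Eno1, Aldoa and other genes with close copies, such as Pgk1, Pgam1 and Ldha, may be divided between copies. Gm5506 rose after TAC in control hearts by 0.60 ± 0.06 on the log2 scale (limma adjusted p = 1.6e-05) and was 0.17 ± 0.06 (limma adjusted p = 0.11) in CKO hearts. Its response differed between genotypes, at -0.43 ± 0.09 (limma adjusted p = 0.037), and it was lower in CKO than in control TAC hearts, at -0.33 ± 0.06 (limma adjusted p = 0.011). Aldoc, the brain form of aldolase, was 0 to 0.188 FPKM.

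After TAC, control hearts held less messenger RNA for 1 of the 2 glucose transporters tested (Slc2a4), 1 of 2 hexokinases (Hk2), 1 of 3 phosphofructokinases (Pfkm), 1 of 6 genes of the lower pathway (Eno3) and 1 of 3 lactate genes (Ldhb). Also lower were 2 of 3 subunits of pyruvate dehydrogenase (Pdha1, Dlat), 2 of the 3 kinases that switch it off (Pdk2, Pdk4), 1 of 2 pyruvate carrier subunits (Mpc2) and 2 of 3 glycogen genes (Pygm, Phkg1). They held more of Pfkp, Pgk1, Gpi1 and Ldha. The regulator Pfkfb1 fell most, by a log2 difference of 2.36 ± 0.11, and Pfkp rose most, by 1.46 ± 0.12. Over both times, 17 of the 31 genes passed the test in control hearts, 4 higher and 13 lower, where 31.4% of all 12589 genes passed (15.3% higher, 16.1% lower). In CKO hearts 8 passed, Pfkp higher and 7 lower, where 9.11% of all genes did (4.23% higher, 4.89% lower). All differences are log2(FPKM + 0.5) of TAC minus sham with the standard error (SE) of one limma fit to the 20 hearts, and a gene passed where its p, adjusted by Benjamini-Hochberg over all genes, was under 0.05. The median difference of the 31 genes was -0.13 in control and -0.20 in CKO hearts, beside 0.00 and 0.01 for all genes. In whole hearts, fewer cells of a type and less RNA per cell cannot be told apart. With 1 heart left out at a time, the control count was 13 to 16, and 12 of the 17 control calls held throughout. The CKO count was 4 without heart 15 or 31, 12 without heart 13 and 3 when only the compared groups were fitted.

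**Figure D2:**
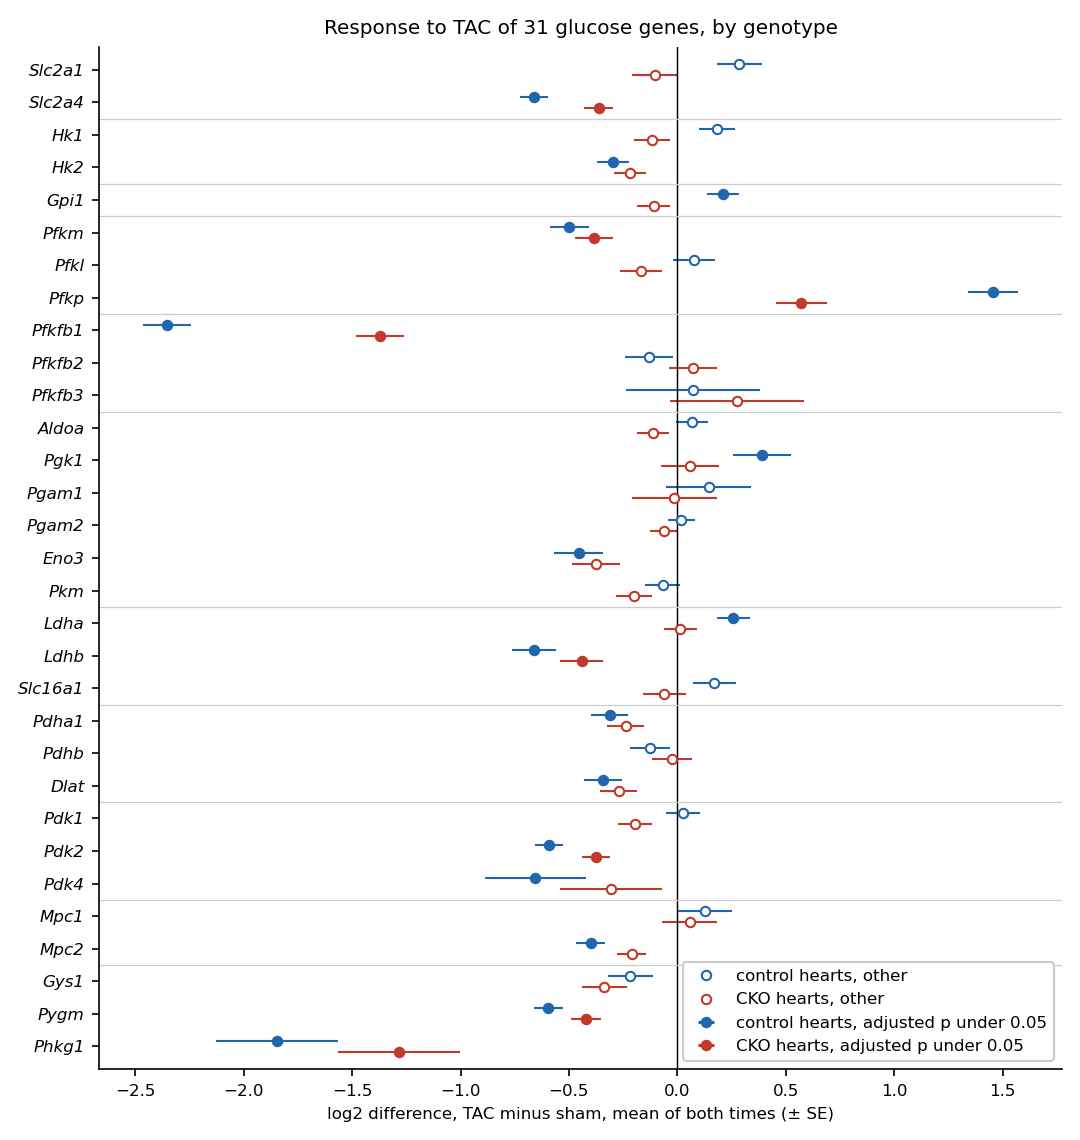
Log2 difference, TAC minus sham, over both times for 31 genes in control (blue) and CKO (red) hearts, with bars of 1 SE of the limma fit and filled points where the adjusted p was under 0.05; lines part the roles. Pfkfb1 (control -2.36, CKO -1.37) lies farthest below 0 and Pfkp (control 1.46, CKO 0.57) farthest above, and all 8 filled red points have a filled blue point on the same side of 0.

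Of the glucose transporters, Slc2a4 (chr11:69942539-69948188, minus strand; genome build mm10, GENCODE M21, as for all positions) fell. In control hearts it was 200.1 and 186 FPKM with sham against 117 and 106 with TAC at 2 weeks, and 191 and 211 against 136 and 143 at 4 weeks. In CKO hearts it was 185 and 187 FPKM with sham against 129.6 and 109 with TAC at 2 weeks, and 189.8 and 175 against 163 and 181 at 4 weeks. Every TAC heart of the controls was below every sham heart, with the lowest values at 2 weeks, while CKO heart 41 at 4 weeks reached into the range of the CKO sham hearts. The difference over both times was -0.66 ± 0.07 (limma adjusted p = 9e-06) in control hearts and -0.36 ± 0.07 (limma adjusted p = 0.0056) in CKO hearts. The CKO call ended when only the compared groups were fitted (highest adjusted p = 0.062). Slc2a1, the transporter of most cells, was 9.94 and 12.4 FPKM at 2 weeks and 11.9 and 9.22 at 4 weeks in control TAC hearts. All were above the 4 control sham hearts (8.16 to 9.03), with a difference of 0.29 ± 0.11 (limma adjusted p = 0.052) that missed the threshold. Control hearts 22 and 23, from the end of tamoxifen and also without TAC, both lay inside the control TAC range of 9.22 to 12.4 FPKM. In CKO TAC hearts Slc2a1 was 7.59 to 8.15 FPKM, inside the CKO sham range of 7.45 to 10.5.

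Hexokinase 2 (Hk2, chr6:82725025-82774454, minus strand), the insulin-responsive hexokinase of muscle, was 80.7 and 82.5 FPKM with sham against 64.4 and 59.1 with TAC at 2 weeks, and 82.4 and 94.6 against 74.7 and 79.6 at 4 weeks in control hearts. In CKO hearts Hk2 was 75.2 and 79.6 FPKM with sham against 62.9 and 50.5 with TAC at 2 weeks, and 79.9 and 81.5 against 82.3 and 81.1 at 4 weeks. All 4 control TAC hearts were below the 4 control sham hearts, the 2-week pair of each genotype was lowest, and the CKO TAC hearts at 4 weeks lay near the top of the CKO sham values. Hk2 fell in control hearts by 0.30 on the log2 scale (limma adjusted p = 0.0081) and was -0.22 ± 0.07 (limma adjusted p = 0.083) in CKO hearts, which missed the threshold. Hk1, the hexokinase of most tissues, was 0.18 ± 0.08 (limma adjusted p = 0.11) in control and -0.12 ± 0.08 (limma adjusted p = 0.4) in CKO hearts. The isomerase Gpi1 rose in control hearts by 0.21 ± 0.07 (limma adjusted p = 0.044). That call ended without heart 1, 6, 7, 11, 12 or 32, without the filter on low values, when only the compared groups were fitted, without a trend in the prior or without the 5 hearts with Myl7 (highest adjusted p = 0.17).

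The phosphofructokinase genes parted. Pfkp (chr13:6579768-6648777, minus strand), the platelet form, was 14.8 and 22.1 FPKM with sham against 44.5 and 46.9 with TAC at 2 weeks, and 16.4 and 18.2 against 54.1 and 52.4 at 4 weeks in control hearts. In CKO hearts Pfkp was 23 and 18.6 FPKM with sham against 26.3 and 28.1 with TAC at 2 weeks, and 17.9 and 21.7 against 35.6 and 32 at 4 weeks. Every TAC heart was above every heart without TAC (14.8 to 23 FPKM), and the 4 control TAC hearts were all above the 4 CKO TAC hearts. The rise was 1.46 ± 0.12 (limma adjusted p = 1.5e-06) in control and 0.57 ± 0.12 (limma adjusted p = 0.01) in CKO hearts. The CKO call was lost without heart 15 or 31 (highest adjusted p = 0.054).

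Pfkm (chr15:98092589-98132451, plus strand), the muscle form and the most abundant of the family, went the other way. It was 503 and 565 FPKM with sham against 348 and 298 with TAC at 2 weeks, and 503 and 589 against 436 and 468 at 4 weeks in control hearts. Its values in CKO hearts were 502 and 556 FPKM with sham against 363 and 291 with TAC at 2 weeks, and 492 and 568 against 499 and 510.3 at 4 weeks. The 2-week TAC hearts were lowest in both genotypes, and the 4-week CKO TAC hearts, unlike the 4 control TAC hearts, overlapped their sham hearts. The difference was -0.50 ± 0.09 (limma adjusted p = 0.0008) in control and -0.38 ± 0.09 (limma adjusted p = 0.018) in CKO hearts. The CKO call ended without heart 8, 15 or 31 or when only the compared groups were fitted (highest adjusted p = 0.089). Pfkl, the liver form, was 0.08 ± 0.10 (limma adjusted p = 0.59) and -0.17 ± 0.10 (limma adjusted p = 0.3) and passed in neither genotype.

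Pfkfb1 (chrX:150588229-150643878, plus strand) encodes a bifunctional enzyme that makes and removes fructose 2,6-bisphosphate, the allosteric activator of phosphofructokinase. In control hearts Pfkfb1 was 17.3 and 14.8 FPKM with sham against 2.63 and 2.01 with TAC at 2 weeks, and 14.5 and 15.5 against 2.71 and 3.28 at 4 weeks. In CKO hearts Pfkfb1 was 12.4 and 16.7 FPKM with sham against 3.63 and 3.16 with TAC at 2 weeks, and 13.4 and 11.2 against 7.06 and 6.56 at 4 weeks. Every TAC heart was below every heart without TAC (8.72 to 17.3 FPKM), and the lowest were the 2-week hearts and the 4-week control hearts. The fall was -2.36 ± 0.11 (limma adjusted p = 3.3e-08) in control and -1.37 ± 0.11 (limma adjusted p = 8.3e-05) in CKO hearts, and each call held when any 1 heart was left out. The 2 other bifunctional enzymes did not pass: Pfkfb2, the heart form, was -0.13 ± 0.11 (limma adjusted p = 0.39) and 0.07 ± 0.11 (limma adjusted p = 0.72), and Pfkfb3 was 0.07 ± 0.31 and 0.27 ± 0.31 with adjusted p of 0.88 and 0.62. Pfkfb3 was 1.21 and 6.51 FPKM in the 2 CKO TAC hearts at 4 weeks, against 1.32 to 3.06 in hearts without TAC.

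**Figure D3:**
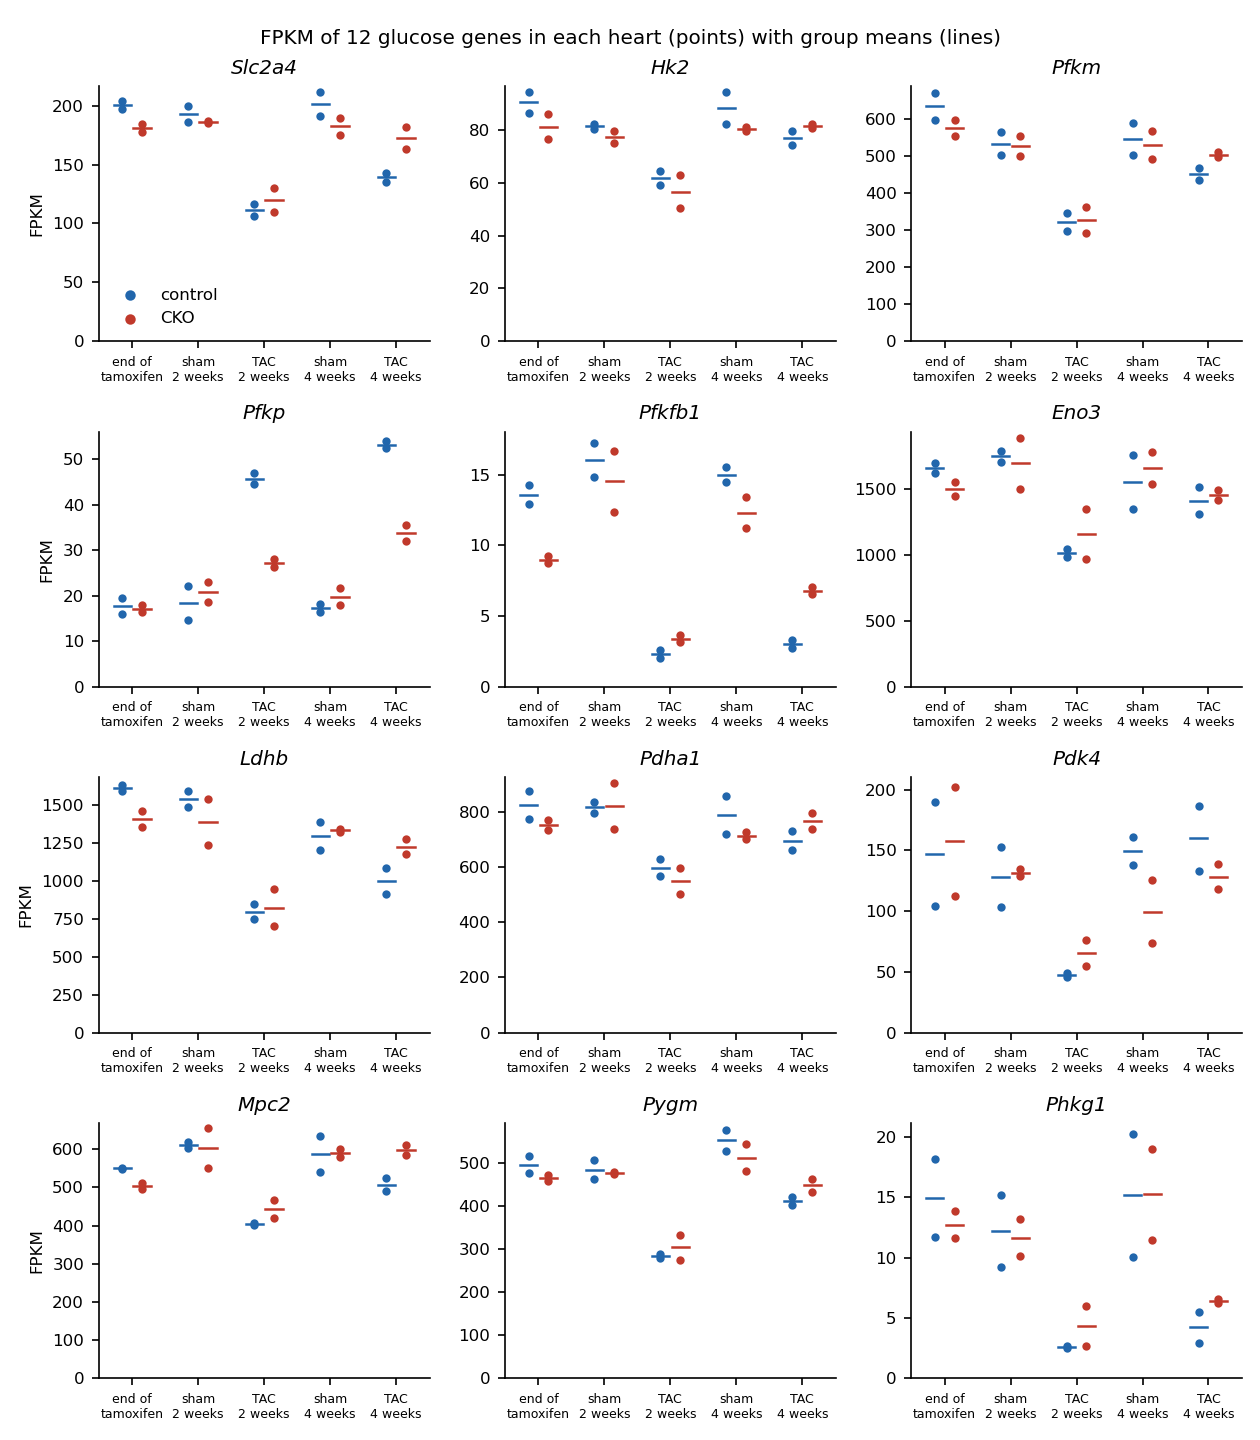
FPKM in each heart (points) and the mean of each group of 2 (lines) for 12 genes, by stage, control blue and CKO red. Pfkp lies above and Pfkfb1 and Phkg1 below their levels without TAC in all 8 TAC hearts, while Slc2a4, Pfkm, Ldhb, Mpc2 and Pygm are lowest at 2 weeks of TAC.

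In the lower pathway 6 genes were tested, of which 1 rose and 1 fell in control hearts and none passed in CKO hearts. Eno3 (chr11:70657202-70662513, plus strand), the muscle enolase, was 1787 and 1704 FPKM with sham against 1047 and 983 with TAC at 2 weeks, and 1349 and 1754 against 1309 and 1511 at 4 weeks in control hearts. Its CKO values were 1500 and 1885 FPKM with sham against 1343 and 968 with TAC at 2 weeks, and 1536 and 1778 against 1414 and 1486 at 4 weeks. The 2-week TAC hearts were below their sham hearts, and at 4 weeks control heart 2 lay between the 2 control sham hearts. The difference was -0.46 ± 0.11 (limma adjusted p = 0.0071) in control and -0.37 ± 0.11 (limma adjusted p = 0.052) in CKO hearts. Pgk1, phosphoglycerate kinase, was 18.1 to 24.3 FPKM in control TAC and 12.1 to 19.5 in control sham hearts and rose by 0.39 ± 0.13 (limma adjusted p = 0.041). That call ended without heart 1, 6, 11, 16 or 32, without the filter on low values, when only the compared groups were fitted, without a trend in the prior or without the 5 hearts with Myl7 (highest adjusted p = 0.19). Aldoa at 0.07 ± 0.08 and -0.11 ± 0.08, Pgam2 at 0.02 ± 0.06 and -0.06 ± 0.06, Pkm at -0.07 ± 0.08 and -0.20 ± 0.08 and Pgam1 at 0.15 ± 0.20 and -0.01 ± 0.20 (control, then CKO) passed in neither genotype, with limma adjusted p of 0.14 to 0.98.

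Among the lactate genes, Ldhb (chr6:142490249-142507957, minus strand), whose promoter with 2 matches to the loose MEF2 pattern is printed above, fell. In control hearts Ldhb was 1593 and 1483 FPKM with sham against 844 and 749 with TAC at 2 weeks, and 1200 and 1388 against 915 and 1087 at 4 weeks. In CKO hearts Ldhb was 1238 and 1541 FPKM with sham against 946 and 701 with TAC at 2 weeks, and 1342 and 1321 against 1176 and 1272 at 4 weeks. All 4 control TAC hearts were below the 4 control sham hearts, and CKO heart 41 at 4 weeks overlapped the CKO sham hearts. The difference was -0.66 ± 0.10 (limma adjusted p = 0.00025) in control and -0.44 ± 0.10 (limma adjusted p = 0.016) in CKO hearts. The CKO call was lost without heart 15 or 31 or when only the compared groups were fitted (highest adjusted p = 0.1).

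Ldha, with the 2 E-boxes, was 599 and 611 FPKM at 2 weeks and 609 and 629.8 at 4 weeks in control TAC hearts, above the 4 control sham hearts (473 to 565). In CKO TAC hearts it was 578 and 479 at 2 weeks and 549 and 502 at 4 weeks, overlapping the CKO sham hearts (488 to 568). It rose in control hearts by 0.26 ± 0.08 (limma adjusted p = 0.02), a call that ended without heart 2, 6, 12 or 32 or without the 5 hearts with Myl7 (highest adjusted p = 0.076), and was 0.01 ± 0.08 (limma adjusted p = 0.94) in CKO hearts. Slc16a1, a carrier of lactate and pyruvate across the cell membrane, was 0.17 ± 0.10 (limma adjusted p = 0.21) and -0.06 ± 0.10 (limma adjusted p = 0.74) and passed in neither genotype.

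Of the 3 pyruvate dehydrogenase subunits tested, Pdha1 and Dlat fell in control hearts and none passed in CKO hearts. Pdha1 (chrX:160122209-160138413, minus strand), the catalytic subunit that the kinases phosphorylate, was 795 and 835 FPKM with sham against 565 and 629.5 with TAC at 2 weeks, and 719 and 854 against 729.5 and 660.1 at 4 weeks in control hearts. Its CKO values were 738 and 903 FPKM with sham against 597 and 500.1 with TAC at 2 weeks, and 725 and 699.8 against 795 and 735 at 4 weeks. The 2-week TAC hearts were the lowest of each genotype, and both CKO TAC hearts at 4 weeks were above the CKO sham hearts of that time. The difference was -0.31 ± 0.09 (limma adjusted p = 0.013) in control hearts, lost without heart 2, 7 or 11 or without the 5 hearts with Myl7 (highest adjusted p = 0.13), and -0.24 ± 0.09 (limma adjusted p = 0.096) in CKO hearts. Dlat, the acetyltransferase subunit, was -0.34 ± 0.09 (limma adjusted p = 0.0087) and -0.27 ± 0.09 (limma adjusted p = 0.067), and the control call ended without the 5 hearts with Myl7 (highest adjusted p = 0.15). Pdhb, the other part of the catalytic subunit, was -0.13 ± 0.09 (limma adjusted p = 0.32) and -0.03 ± 0.09 (limma adjusted p = 0.89).

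The kinases that switch pyruvate dehydrogenase off differed in pattern. Pdk4 (chr6:5483351-5496309, minus strand), the kinase that fasting and fatty acids are known to induce, was 104 and 153 FPKM with sham against 49.4 and 46.1 with TAC at 2 weeks, and 161 and 138 against 133 and 186 at 4 weeks in control hearts. In CKO hearts Pdk4 was 129 and 134 FPKM with sham against 54.6 and 76 with TAC at 2 weeks, and 126 and 73.4 against 139 and 118 at 4 weeks. The 2-week TAC hearts of controls were below all other control hearts, CKO sham heart 8 lay between the 2 CKO hearts at 2 weeks of TAC, and the hearts at the end of tamoxifen were 189.8 and 105 in controls and 202 and 113 in CKO mice. Over both times the difference was -0.66 ± 0.23 (limma adjusted p = 0.046) in control hearts, a call that ended without heart 1, 6, 7, 11, 16 or 32, without the filter on low values, with median-ratio scaling, without a trend in the prior or without the 5 hearts with Myl7 (highest adjusted p = 0.22), and -0.31 ± 0.23 (limma adjusted p = 0.44) in CKO hearts. Pdk2, with the highest median of the 3 kinases without TAC, fell to 108 to 151 FPKM from 169.5 to 210.0 in control hearts and to 111 to 167 from 168 to 192 in CKO hearts, without overlap in either. The differences were -0.59 ± 0.07 (limma adjusted p = 2e-05) and -0.38 ± 0.07 (limma adjusted p = 0.0044), and both calls held in every setting tried. Pdk1, which HIF is known to induce, was 0.03 ± 0.08 (limma adjusted p = 0.84) and -0.20 ± 0.08 (limma adjusted p = 0.13) and passed in neither genotype over both times.

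Of the mitochondrial pyruvate carrier, which is built from both subunits, Mpc2 (chr1:165460637-165481214, plus strand) was 604 and 618 FPKM with sham against 408 and 401 with TAC at 2 weeks, and 539.7 and 636 against 491 and 524 at 4 weeks in control hearts. Mpc2 in CKO hearts was 550.2 and 656 FPKM with sham against 467 and 419 with TAC at 2 weeks, and 581 and 602 against 612 and 586 at 4 weeks. All 4 control TAC hearts were below the control sham hearts, and in CKO hearts only the 2-week pair was. Mpc2 differed by -0.40 ± 0.07 (limma adjusted p = 0.00053) in control and -0.21 ± 0.07 (limma adjusted p = 0.065) in CKO hearts. Mpc1 had a lower level (33.5 to 53.3 FPKM) and differed by 0.13 ± 0.13 (limma adjusted p = 0.49) in control and 0.06 ± 0.13 (limma adjusted p = 0.83) in CKO hearts, passing in neither.

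The 2 genes of glycogen breakdown fell in both genotypes. Phkg1 (chr5:129863421-129898549, minus strand), the muscle catalytic subunit of phosphorylase kinase, was 15.2 and 9.23 FPKM with sham against 2.51 and 2.69 with TAC at 2 weeks, and 10.1 and 20.3 against 2.95 and 5.54 at 4 weeks in control hearts. In CKO hearts Phkg1 was 10.1 and 13.2 FPKM with sham against 5.95 and 2.65 with TAC at 2 weeks, and 19 and 11.5 against 6.59 and 6.23 at 4 weeks. Every TAC heart was below every heart without TAC (9.23 to 20.3 FPKM), although hearts of a pair differed by up to a factor of 2.25, in CKO hearts at 2 weeks of TAC. The difference was -1.85 ± 0.28 (limma adjusted p = 0.00026) in control and -1.28 ± 0.28 (limma adjusted p = 0.014) in CKO hearts. The CKO call was lost without heart 15 or 31, when only the compared groups were fitted or without the 5 hearts with Myl7 (highest adjusted p = 0.077).

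Pygm (chr19:6384399-6398459, plus strand), the muscle glycogen phosphorylase that this kinase activates, was 464 and 508 FPKM with sham against 289.8 and 280.3 with TAC at 2 weeks, and 529 and 578 against 423 and 403 at 4 weeks in control hearts. Pygm in CKO hearts was 474 and 481 FPKM with sham against 333 and 276 with TAC at 2 weeks, and 482 and 544 against 465 and 434 at 4 weeks. No TAC heart overlapped a sham heart of its genotype, and the 2-week hearts were the lowest. The difference was -0.59 ± 0.07 (limma adjusted p = 2.7e-05) in control and -0.42 ± 0.07 (limma adjusted p = 0.0027) in CKO hearts. The CKO call was lost when only the compared groups were fitted (highest adjusted p = 0.054). Gys1, muscle glycogen synthase, was -0.22 ± 0.11 (limma adjusted p = 0.13) and -0.34 ± 0.11 (limma adjusted p = 0.061) and passed in neither genotype.

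All 8 genes that passed in CKO hearts were among the 17 of control hearts (100% of the one list, 47.1% of the other) and in the same direction. The 2 comparisons use different hearts but share one estimate of the spread. Sharing of calls was not counted among all genes, so it is not shown to be particular to these genes. The 9 that passed in control hearts alone were Dlat, Eno3, Gpi1, Hk2, Ldha, Mpc2, Pdha1, Pdk4 and Pgk1, and none of them differed in response between genotypes beyond the threshold. Without regard to p, the 4 TAC hearts did not overlap the 4 sham hearts for 3 genes higher and 9 lower in controls, where 11.4% and 12.2% of all genes did so, and for 1 higher and 5 lower in CKO hearts, against 2.99% and 4.05%.

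Shares of an isoform in the summed FPKM of its family are given as a description. Ldha made up 23.4% to 29.2% of Ldha and Ldhb in the 12 hearts without TAC. After TAC it was 41.5% and 44.9% in control hearts at 2 weeks and 40.0% and 36.7% at 4 weeks, and 37.9% and 40.6% and then 31.8% and 28.3% in CKO hearts. All TAC hearts but CKO heart 41 were above the range without TAC, and the 4 control TAC hearts were above both 4-week CKO TAC hearts.

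Pfkp was 2.44% to 4.00% of the 3 phosphofructokinases without TAC. It was 10.1% and 12.3% at 2 weeks and 9.85% and 9.04% at 4 weeks in control TAC hearts, and 6.12% and 7.86% and then 6.04% and 5.39% in CKO TAC hearts. All 8 were above the range without TAC, and the genotypes did not overlap. Slc2a1 was 3.78% to 5.39% of the 2 glucose transporters without TAC, 6.06% to 10.5% in control TAC hearts, and 5.63% and 6.66% at 2 weeks and 4.76% and 4.02% at 4 weeks in CKO TAC hearts, of which the 4-week pair lay within the range without TAC. Pfkfb1 was 18.6% to 40.5% of the 3 bifunctional enzymes without TAC, 8.14% to 10.7% in control TAC hearts and 12.6% to 20.9% in CKO TAC hearts. CKO TAC heart 3, at 20.9%, lay inside the range without TAC. Hk1 went from 35.3% to 47.2% of the 2 hexokinases to 45.1% to 55.2% in control and 42.1% to 49.7% in CKO TAC hearts, ranges that overlap, and 4 of the 8 TAC hearts were above the highest heart without TAC. Pgam1 stayed between 0.117% and 0.459% of the 2 mutases in all 20 hearts.

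**Figure D4:**
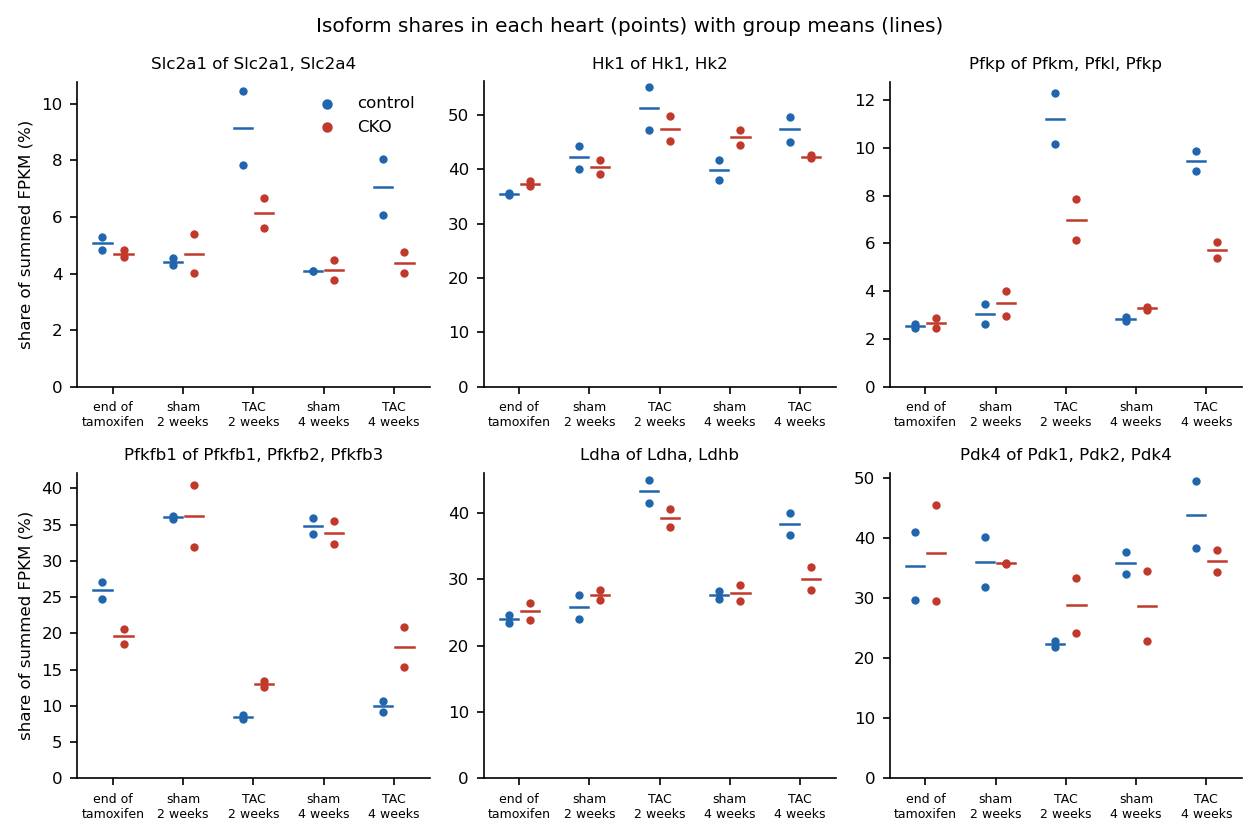
Share (%) of the first-named gene in the summed FPKM of its family, for each heart (points) with group means (lines), control blue and CKO red. Ldha stays at 23.4% to 29.2% without TAC and reaches 36.7% to 44.9% in control TAC hearts, and for Pfkp every control TAC heart lies above every CKO TAC heart.

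At 2 weeks, 13 of the genes fell in both genotypes, among them Slc2a4, Ldhb, Pdha1, Pdk4 and Pygm, and at 4 weeks fewer passed. In control hearts 14 of the 31 genes passed at 2 weeks, 1 higher and 13 lower, where 23.8% of all genes did (11.0% higher, 12.8% lower). At 4 weeks 7 passed in control hearts, 2 higher and 5 lower, where 12.7% of all genes did (6.36% higher, 6.37% lower). In CKO hearts 16 passed at 2 weeks, all lower (19.3% of all genes, 9.21% lower), and none at 4 weeks, where 0.262% of all genes did. At 4 weeks in CKO hearts, 4 of the 31 genes had an unadjusted p under 0.05 in limma, as did 1601 of all 12589. They included Pfkfb1 at -0.81 ± 0.16 (limma adjusted p = 0.052) and Pfkp at 0.76 ± 0.16 (limma adjusted p = 0.075). The others were Phkg1 at -1.15 ± 0.40 (limma adjusted p = 0.24) and Pfkfb2 at 0.34 ± 0.16 (limma adjusted p = 0.38). The median difference of the 31 genes was -0.25 and -0.36 at 2 weeks (control, CKO) and 0.01 in both at 4 weeks, beside 0.00 for all genes in each.

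The 2-week lists shared 13 genes, 92.9% of the control list and 81.2% of the CKO list, all lower: Slc2a4, Hk2, Pfkm, Pfkfb1, Eno3, Ldhb, Pdha1, Dlat, Pdk2, Pdk4, Mpc2, Pygm and Phkg1. The matching share among all genes was not counted. Pdk4 was -1.39 ± 0.33 (limma adjusted p = 0.008) in control and -1.02 ± 0.33 (limma adjusted p = 0.044) in CKO hearts at 2 weeks, and 0.08 ± 0.33 (limma adjusted p = 0.91) and 0.41 ± 0.33 (limma adjusted p = 0.63) at 4 weeks. Ldhb was -0.95 ± 0.14 (limma adjusted p = 0.00039) and -0.76 ± 0.14 (limma adjusted p = 0.0032) at 2 weeks and -0.37 ± 0.14 (limma adjusted p = 0.1) and -0.12 ± 0.14 (limma adjusted p = 0.75) at 4 weeks. Pfkp passed in control hearts alone, at 1.32 ± 0.16 (limma adjusted p = 0.00011) against 0.39 ± 0.16 (limma adjusted p = 0.12) in CKO hearts, and Gys1, Pdk1 and Pkm in CKO hearts alone, at -0.56 ± 0.15, -0.47 ± 0.11 and -0.36 ± 0.12. At 4 weeks the control calls were Pfkfb1, Pfkp, Pdk2, Slc2a4, Pygm, Phkg1 and Gpi1, the first at -2.15 ± 0.16 and the last at 0.37 ± 0.11, and all but Gpi1 were also called at 2 weeks. The CKO count at 2 weeks was 5 without heart 15 or 31 and 0 when only the compared groups were fitted, and the control count at 4 weeks was 4 without heart 7 and 2 in such a fit. Without the 5 hearts with Myl7, which leaves both control groups and the CKO sham group at 2 weeks with 1 heart each, the counts at 2 weeks were 8 in control and 9 in CKO hearts.

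The change between times was itself tested. In control hearts no gene passed (0.00794% of all genes did), and 7 had an unadjusted p under 0.05 in limma, as did 1718 of all 12589. Pdk4 was first, at 1.47 ± 0.47 (limma adjusted p = 0.21) for the 4-week minus the 2-week response. In CKO hearts 4 passed, all higher, where 6.54% of all genes did (2.71% higher, 3.83% lower): Pfkfb1 at 1.13 ± 0.22 (limma adjusted p = 0.015), Slc2a4 at 0.56 ± 0.13 (limma adjusted p = 0.026), Pdha1 at 0.68 ± 0.17 (limma adjusted p = 0.032) and Pfkm at 0.63 ± 0.18 (limma adjusted p = 0.048), each higher in its response at 4 weeks than at 2. The 4-week response itself was -0.81 ± 0.16 for Pfkfb1, -0.08 ± 0.09 for Slc2a4, -0.07 ± 0.12 for Pfkm and 0.10 ± 0.12 for Pdha1, which was nominally above sham but below it with quantile normalization, and none of the 4 passed in limma (adjusted p = 0.052 to 0.86). Pdk4 had a change of 1.43 ± 0.47 (limma adjusted p = 0.077) there, about as large as in controls. None of the 4 calls held when hearts were left out one at a time: the count was 0 without heart 8, 15 or 31, 2 without heart 3, 4 or 41 and 11 without heart 13. It was 0 when only the compared groups were fitted and 1 without the 5 hearts with Myl7. Whether the change with time differed between genotypes was not tested.

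**Figure D5:**
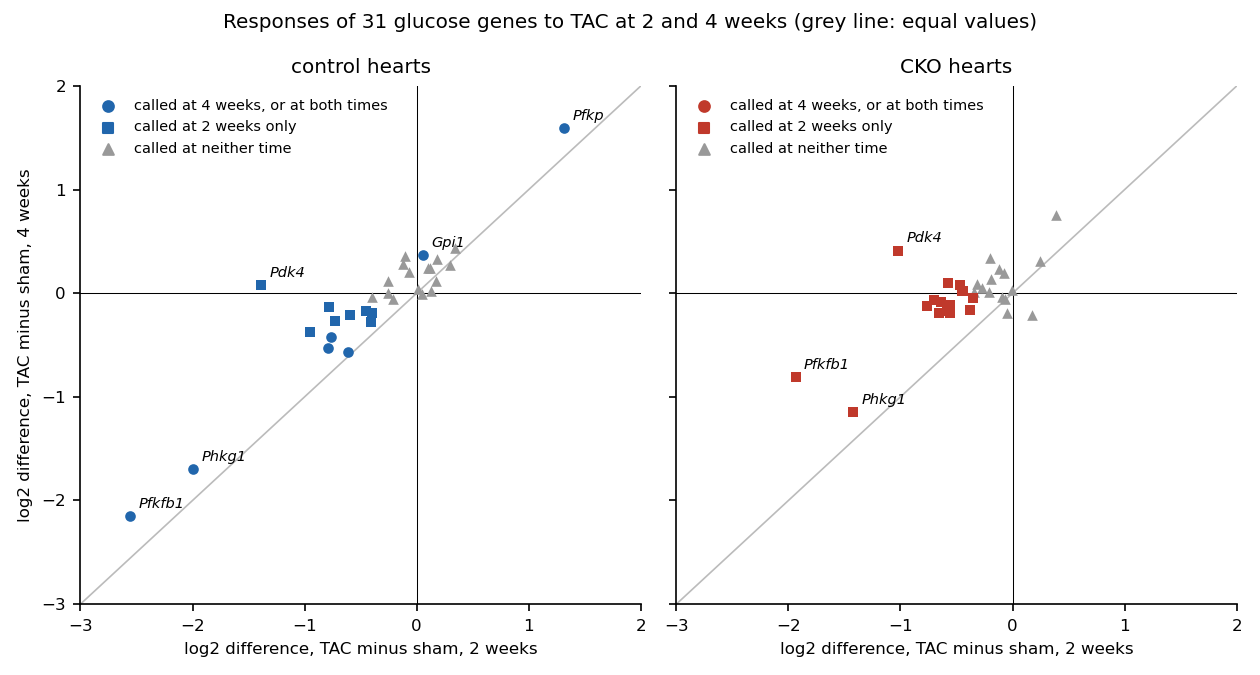
Log2 difference, TAC minus sham, at 2 weeks (x axis) against 4 weeks (y axis) for 31 genes in control (left) and CKO (right) hearts; marker shapes give the times at which the adjusted p was under 0.05, and grey triangles passed at neither. Points above the grey line are higher at 4 weeks than at 2, among them Pdk4 at -1.39 and 0.08 in controls, and no CKO point passed at 4 weeks.

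Between genotypes, the response to TAC differed for 2 of the 31 genes, where 1.25% of all genes passed. An unadjusted p under 0.05 in limma was found for 8 of the 31 and for 1677 of all 12589 genes. The rise of Pfkp was smaller in CKO hearts by 0.88 ± 0.16 on the log2 scale (limma adjusted p = 0.019), and the fall of Pfkfb1 was smaller by 0.98 ± 0.16 (limma adjusted p = 0.0082). Pfkp missed the threshold without heart 1, 8, 13, 14, 32 or 41 (highest adjusted p = 0.058), and both missed it without the 5 hearts with Myl7, at values of -0.97 and 1.01 (limma adjusted p = 0.056 and 0.056). Next in order of p were Slc2a4 at 0.30 ± 0.09 (limma adjusted p = 0.16), Gpi1 at -0.32 ± 0.11 (limma adjusted p = 0.19), Slc2a1 at -0.39 ± 0.15 (limma adjusted p = 0.27) and Hk1 at -0.30 ± 0.12 (limma adjusted p = 0.27), none of which passed.

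Compared directly after TAC over both times, 4 of the 31 genes differed between genotypes, where 3.45% of all genes did (1.19% higher and 2.26% lower in CKO hearts). Pfkfb1 was higher in CKO hearts by 0.77 ± 0.11 (limma adjusted p = 0.0019). Lower were Pfkp at -0.70 ± 0.12 (limma adjusted p = 0.0051), Slc2a1 at -0.44 ± 0.11 (limma adjusted p = 0.034) and Gpi1 at -0.31 ± 0.07 (limma adjusted p = 0.036). Ldha missed the threshold at -0.22 ± 0.08 (limma adjusted p = 0.14). For Pfkp, Slc2a1, Gpi1 and Ldha the 4 CKO hearts were all below the 4 control hearts, as for 3.45% of all genes. The Slc2a1 call ended without heart 1, 3, 13, 31, 32 or 41, without the filter on low values or when only the compared groups were fitted (highest adjusted p = 0.16), and the Gpi1 call without heart 1, 3, 11, 31, 32 or 41, when only the compared groups were fitted, without a trend in the prior or without the 5 hearts with Myl7 (highest adjusted p = 0.16). These hearts are also part of the responses above, so the values are not separate evidence.

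At 2 weeks no gene passed (0.413% of all genes did), and 8 had an unadjusted p under 0.05 in limma, as did 1606 of all 12589. Pfkp was -0.74 ± 0.16 (limma adjusted p = 0.061) in CKO against control TAC hearts. At 4 weeks Pfkfb1 alone passed, at 1.07 ± 0.16 (limma adjusted p = 0.0052), where 0.834% of all genes did, and Pfkp was -0.65 ± 0.16 (limma adjusted p = 0.099). The Pfkfb1 call at 4 weeks ended without heart 1 or when only the compared groups were fitted (highest adjusted p = 0.27). Without heart 3 the count was 2.

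Without TAC no difference between genotypes passed. In sham hearts no gene passed, where 0.00794% of all genes did, and none had an unadjusted p under 0.05 in limma, as 518 of all 12589 did. At the end of tamoxifen none passed, against 0.0159%. The gene with the smallest p at the end of tamoxifen was Pfkfb1, at 14.2 and 12.9 FPKM in control and 8.72 and 9.27 in CKO hearts, -0.57 ± 0.16 (limma unadjusted p = 0.0027, adjusted p = 1.0). Only 2 of the 31 genes were nominally higher in the CKO hearts at that stage, with a median difference of -0.11 beside 0.00 for all genes. Both CKO hearts at that stage are among the 5 with Myl7, so genotype and atrial tissue cannot be told apart there.

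Stages without TAC also gave no call. From the end of tamoxifen to sham at 2 weeks, over both genotypes, none of the 31 genes passed (0.913% of all genes did). An unadjusted p under 0.05 in limma was found for 6 of them and for 1967 of all 12589 genes. Pfkfb2 at -0.48 ± 0.11 (limma adjusted p = 0.058) and Pfkfb1 at 0.44 ± 0.11 (limma adjusted p = 0.079) were first. From 2 to 4 weeks after sham none passed, in a comparison in which no gene of any kind did. An unadjusted p under 0.05 in limma was found for 5 of the 31 and for 1894 of all 12589 genes. Pgam2 was first, at 0.21 ± 0.06 (limma adjusted p = 0.17).

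Other genes of glucose use were taken from 5 lists, to be read against the 15.3% higher and 16.1% lower of all genes in control and the 4.23% and 4.89% in CKO TAC hearts over both times. Among 12 other genes of pyruvate use, 0 rose and 8 fell in control TAC hearts. Pdp2, a phosphatase that switches pyruvate dehydrogenase back on, fell by 0.98 ± 0.12 on the log2 scale (limma adjusted p = 6e-05), Gpt2 and Gpt, which interconvert pyruvate and alanine, fell by 1.01 and 0.76, and Pcx, pyruvate carboxylase, by 0.56. In CKO hearts 1 rose and 5 fell, the riser being the malic enzyme Me2 at 0.44 ± 0.09 (limma adjusted p = 0.011). Of 15 other glycolysis genes tested, 2 rose and 5 fell in control and 1 rose and 3 fell in CKO hearts. Ldhd, which oxidizes D-lactate, was -0.89 and -0.54, and Fbp2, the muscle fructose bisphosphatase, -1.38 and -0.73, all past the threshold.

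Of 19 other glycogen genes, 6 rose and 5 fell in control and 1 rose and 7 fell in CKO hearts. Ppp1r3c, which brings a phosphatase to glycogen and favours its synthesis, rose in control hearts by 0.74 ± 0.12 (limma adjusted p = 0.00038), from 106 to 178 FPKM on average. It was lower in CKO than in control TAC hearts, at -0.69 ± 0.12 (limma adjusted p = 0.0057). Of the 5 lists it was the one gene whose response differed between genotypes, at -0.76 ± 0.17 (limma adjusted p = 0.044), where 1.25% of all genes did. In CKO against control TAC hearts, the other glycogen genes gave 0 higher and 3 lower, and the other glycolysis genes 3 and 0. Pyruvate use gave 1 and 0, side branches 0 and 1, and regulators 1 and 0. Of all genes, 1.19% were higher and 2.26% lower. Ugp2, which makes the UDP-glucose that glycogen synthase uses, rose in control hearts by 0.67 ± 0.10 (limma adjusted p = 0.0002). Gaa, the lysosomal enzyme that degrades glycogen, fell in both genotypes, by 0.44 and 0.43. Of 17 genes of side branches, 2 rose and 3 fell in control and 0 rose and 1 fell in CKO hearts, with Sord (sorbitol dehydrogenase) lower by 0.61 and 0.36.

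Among 24 regulators, 2 rose and 8 fell in control and 2 rose and 5 fell in CKO hearts. Tbc1d4, which holds Slc2a4 inside the cell until insulin acts, fell by 0.96 ± 0.09 in control hearts (limma adjusted p = 3.7e-06) and by 0.43 ± 0.09 in CKO hearts (limma adjusted p = 0.0094), and Akt2, a kinase that acts on it, by 0.49 and 0.36. Klf15, a transcription factor known to favour Slc2a4 expression, fell by 1.30 ± 0.16 in control hearts (limma adjusted p = 4.9e-05). Hif1a rose in both genotypes, by 0.54 ± 0.08 in control (limma adjusted p = 0.00023) and 0.34 ± 0.08 in CKO hearts (limma adjusted p = 0.021).

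Cell markers moved over the same comparisons. Their counts are to be read against all genes, of which 15.3% were higher and 16.1% lower in control TAC hearts over both times. In CKO TAC hearts these shares were 4.23% and 4.89%. At 2 weeks 1386 of all 12589 genes were higher in control and 1265 in CKO TAC hearts. The response was lower in CKO hearts for 0.913% of all genes. The 10 cardiomyocyte markers summed to 79079 to 103936 FPKM in the 12 hearts without TAC, 68317 to 81696 at 2 weeks of TAC and 83416 to 97475 at 4 weeks, with 1 higher and 5 lower in control and 5 lower in CKO TAC hearts over both times. The 8 fibroblast markers summed to 684 to 905 FPKM without TAC. At 2 weeks of TAC they summed to 1336 to 1461 in control and 985 to 1100 in CKO hearts, and at 4 weeks to 843 to 860.0 and 603 to 659. Over both times 7 of the 8 rose in control and 4 in CKO hearts, and the response of 3 was lower in CKO hearts. Endothelial markers summed to 1876 to 2898 FPKM without TAC, 2668 to 3769 at 2 weeks and 2108 to 2374 at 4 weeks of TAC, with 2 of 7 higher in control and 0 in CKO hearts over both times, and 2 and 4 at 2 weeks. Macrophage markers summed to 313 to 617, 701 to 858 and 393 to 632 FPKM in the same order, with 5 of 8 higher in control and 0 in CKO hearts over both times, and 0 in control and 4 in CKO hearts at 2 weeks. No marker of either list differed in response between genotypes. Of 4 smooth muscle markers 1 was higher and 1 lower in control TAC hearts, and of 4 neutrophil markers tested 2 were higher. Atrial markers summed to 1.01 to 729 FPKM, adipocyte markers to 0.0 to 19.8 and erythroid markers to 261 to 6046 over the 20 hearts. The 33 glucose genes made up 1.62% to 1.79% of summed FPKM without TAC, 1.32% to 1.5% at 2 weeks and 1.56% to 1.62% at 4 weeks of TAC. The part of cell makeup in the results was not tested.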

How the data were processed

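The deposited tables hold 1 FPKM value per gene and heart, and the tables give no read counts. Per the labels' protocols, the miRNeasy Mini kit gave the RNA and the TruSeq Stranded mRNA kit the libraries, so polyadenylated RNA was read. Per the submitters' processing notes, the tools named are TopHat2 2.1.1, Bowtie2 and Cuffdiff 2.2.1 with build mm10, and settings are not given in the sources used here. FPKM from such estimates can divide reads between near-identical genes.

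Here, log2(FPKM + 0.5) of the 12589 genes with a mean of 0.5 FPKM or more was fitted with limma 3.58.1 (R 4.3.3; prior variance with trend) as 10 group means, and 16 contrasts were tested two-sided, each adjusted by Benjamini-Hochberg over all genes. A fold change on this scale understates that of low genes. The fit was tested on simulated data. Genes given for every sham and TAC heart are, within each role, those with the largest called differences in any comparison. The genes and lists were chosen with earlier results of these data known. Alternatives were pseudocounts of 0.1 and 1, no filter or one at 3 FPKM, median-ratio and quantile scaling, fitting the compared groups alone, no trend in the prior, each heart left out, and, added later, leaving out hearts whose Myl7 reached 10 FPKM. Tables and figures used Python 3.11.15. Gene positions are from GENCODE M21, promoters from RefSeq. One gene of the other glycolysis list is counted but not reported here.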

Additional observations from a re-analysis of the deposited data

Results flagged for a closer look

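The responses to TAC of 2 genes differed between genotypes in a test of the difference itself, which 1.25% of all genes passed. Pfkp rose less in CKO than in control hearts, with a difference of -0.88 ± 0.16 (limma adjusted p = 0.019), and all 4 control TAC hearts were above all 4 CKO TAC hearts. Pfkfb1 fell less in CKO hearts, with a difference of 0.98 ± 0.16 (limma adjusted p = 0.0082). With 1 heart left out at a time, only the Pfkfb1 call held throughout. Without the 5 hearts with Myl7 the values were -0.97 and 1.01, and neither call held. That setting leaves the control sham, control TAC and CKO sham groups at 2 weeks with 1 heart each, so fewer hearts and atrial tissue cannot be told apart. The part of atrial tissue was not tested.

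In CKO hearts the responses of 4 genes differed between 4 and 2 weeks in such a test, each response being higher at 4 weeks: Slc2a4 by 0.56 ± 0.13 (limma adjusted p = 0.026), Pfkm by 0.63 ± 0.18 (limma adjusted p = 0.048), Pfkfb1 by 1.13 ± 0.22 (limma adjusted p = 0.015) and Pdha1 by 0.68 ± 0.17 (limma adjusted p = 0.032). Of all genes, 6.54% passed this test (2.71% higher, 3.83% lower). Each of these 4 calls ended without CKO heart 8, 15 or 31. No group of 4 to 10 hearts entered a search for outlying hearts, since each group held 2.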

How the results depend on the processing

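With one heart left out at a time, the count of genes called after TAC over both times was 13 to 16 in control and 4 to 12 in CKO hearts, 10 to 14 and 5 to 17 at 2 weeks, and 4 to 6 and 0 to 1 at 4 weeks. It was 1 to 2 for the genotypes' difference in response, 0 to 11 for the change with time in CKO hearts, 2 to 4 for CKO against control TAC hearts and 0 to 2 at 4 weeks alone. It was 0 throughout for the change with time in controls, for genotypes at 2 weeks of TAC and for the comparisons without TAC. When only the compared groups were fitted, the CKO count was 3 over both times and 0 at 2 weeks, the control count at 4 weeks 2, the CKO change with time 0, and CKO against control TAC hearts 2, or 0 at 4 weeks. Without the 5 hearts with Myl7, a setting chosen after seeing the data that leaves 3 groups at 2 weeks with 1 heart, assumed to vary like the others, the 2-week counts were 8 in control and 9 in CKO hearts, the difference in response 0 and the CKO change with time 1. The CKO change with time was 2 without the filter on low values, 2 without a trend in the prior and 1 with quantile normalization. Quantile normalization gave 11 in control hearts at 4 weeks, and 1 between sham at 2 weeks and the end of tamoxifen, as did a filter at 3 FPKM. In CKO hearts at 4 weeks a pseudocount of 1 FPKM, a filter at 3 FPKM and median-ratio scaling each gave 1. All other settings left these counts within 1.5 times, which does not show that the same genes passed. Over both times in control hearts, the calls of Gpi1, Pgk1, Ldha, Pdha1, Dlat and Pdk4 ended without the hearts with Myl7, as given above.

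Of 1181 values of 132 gene results in other settings, 1064 kept direction and side of the threshold and 95 lost the call, as did 114 of 892 with a heart left out. No called gene changed sign. Results that missed the threshold did: without the hearts with Myl7 Ldha (CKO, both times) at -0.0417, Mpc1 (CKO, both times) at -0.043, Pdk1 (control, both times) at -0.0192 and Pgam1 (control, both times) at -0.0011. With quantile normalization they were Pdha1 (CKO, 4 weeks) at -0.0352, Pdhb (CKO, both times) at 0.0266, Pfkfb3 (control, both times) at -0.0017 and Pgam2 (CKO, both times) at 0.0253. With one heart left out they ranged as follows: Ldha (CKO, both times) -0.0556 to 0.0805, Mpc1 (CKO, both times) -0.043 to 0.16, Pdhb (CKO, both times) -0.14 to 0.0858, Pdk1 (control, both times) -0.0274 to 0.078, Pdk4 (control, 4 weeks) -0.17 to 0.32, Pfkfb2 (CKO, both times) -0.0023 to 0.15, Pfkfb2 (control, both times) -0.27 to 0.0051, Pfkfb3 (CKO, both times) -0.23 to 0.78, Pfkfb3 (control, both times) -0.0381 to 0.19, Pfkl (control, both times) -0.0102 to 0.16, Pfkm (CKO, 4 weeks) -0.17 to 0.0366, Pgam1 (CKO, both times) -0.24 to 0.21, Pgam2 (CKO, both times) -0.13 to 0.0074 and Pkm (control, both times) -0.14 to 0.0046. The cause was not tested. No paired analysis was possible because every heart has a number of its own and no number is shared between groups. With 2 hearts a group and unknown depth, small differences are not detectable, and a missed threshold does not show equal levels.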
